A study of Homo sapiens with 9 samples.

Results

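Tight junctions are the belts of protein that seal the space between neighbouring epithelial cells. Claudins and occludin are the membrane-spanning parts of the belt, and the identity of the claudins sets which ions and water pass between the cells. The junctional adhesion molecule encoded by F11R sits beside them in the membrane, and the zonula occludens scaffold encoded by TJP1 ties the membrane proteins to the actin cytoskeleton. In the gut some claudins are known as sealing proteins, whereas the protein encoded by CLDN2 forms a channel for small cations and water.

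Described here are 9 genes of this structure, namely CLDN1, CLDN2, CLDN3, CLDN4, CLDN7, CLDN12, OCLN, TJP1 and F11R, of 62710 genes in the count table. They were chosen by name with earlier results of these data known, and each was found once by its symbol. The RNA came from HT-29, an established human colorectal adenocarcinoma line with the wild-type genotype, and 3 libraries were made from each of 3 groups. Cells were left non-stimulated, or received 500 ng/mL ADP-heptose, a bacterial sugar nucleotide sensed in the cytosol by the kinase ALPK1, or 500 ng/mL flagellin, the bacterial filament protein sensed by the receptor TLR5, each for 2.5 h. The comparisons ask how ADP-heptose alters gene expression in cancer cells, with flagellin as a second bacterial stimulus. All groups are 1 cell line grown without other cell types, and per the study the 3 libraries of a group came from independent experiments, though no source used here ties a replicate number to an experiment.

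The libraries held 35040844 to 37537705 counts in the non-stimulated group, 30770448 to 38304035 after flagellin and 50054773 to 58272772 after ADP-heptose. All 11 epithelial and HT-29 markers passed the filter on low counts. Their summed level was 8690 to 9106 CPM (counts scaled to a common library total) in non-stimulated libraries, 8916 to 9290 CPM after flagellin and 9524 to 13390 CPM after ADP-heptose. The top of the ADP-heptose range was replicate 3, which stood apart from its group as described below. KRT20 alone passed the test for a rise after ADP-heptose. The intestinal factor gene CDX2 was low, at 0.301 to 1.36 CPM. Endothelial markers summed to at most 0.19 CPM. The fibroblast list summed to at most 19.1 CPM, nearly all from COL1A1, which rose by 0.41 on the log2 scale after ADP-heptose against non-stimulated cells, while COL1A2 and DCN were at 0 in every library. The leukocyte list was nearly all LYZ, with CD3E at 0. As a check that both stimuli acted, CXCL8, which encodes a chemokine, averaged 4.75 CPM without stimulation, 26.7 CPM after flagellin and 975 CPM after ADP-heptose, and CCL20, TNFAIP3, NFKBIA and ICAM1 also passed the test in all 3 comparisons. ADP-heptose replicate 3 stood apart from its group. The SD over 12168 genes of its log2 difference was 0.378 from replicate 1 and 0.383 from replicate 2, against 0.135 between those replicates and 0.167 to 0.196 within the other groups. Results that rest on it are therefore also given without it.

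Every one of the 9 genes was expressed. Genes of different length were set side by side in CPM per kilobase of annotated exon. That length joins the exons of all annotated transcripts of a gene. For genes with longer annotated transcripts, such as CLDN4, it may exceed the length of the RNA present, which was not tested. The order given here holds for this length only. On this scale CLDN3 stood highest in non-stimulated cells at 231 ± 9.28 (SD, n = 3). CLDN2 followed at 175 ± 3.63, CLDN4 at 95.8 ± 4.07 and CLDN7 at 41.9 ± 1.64. F11R at 25.2 ± 1.85 and CLDN1 at 23.4 ± 0.84 were neighbours whose libraries overlapped. TJP1 at 19.7 ± 1.44, CLDN12 at 9.22 ± 0.15 and OCLN at 4.57 ± 0.13 were lowest. The libraries of all other neighbours in this order were separate. After flagellin the means stood in the same order, and F11R at 25.5 ± 1.40 and CLDN1 at 25.1 ± 0.61 were again the one pair of neighbours that overlapped. After ADP-heptose, CLDN4 stood at 158 ± 17.9 beside CLDN2 at 162 ± 8.56, and the libraries of this pair overlapped. In the same group CLDN1, at 41.5 ± 4.60, lay above F11R, at 30.1 ± 2.98, in every library.

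**Figure D1:**
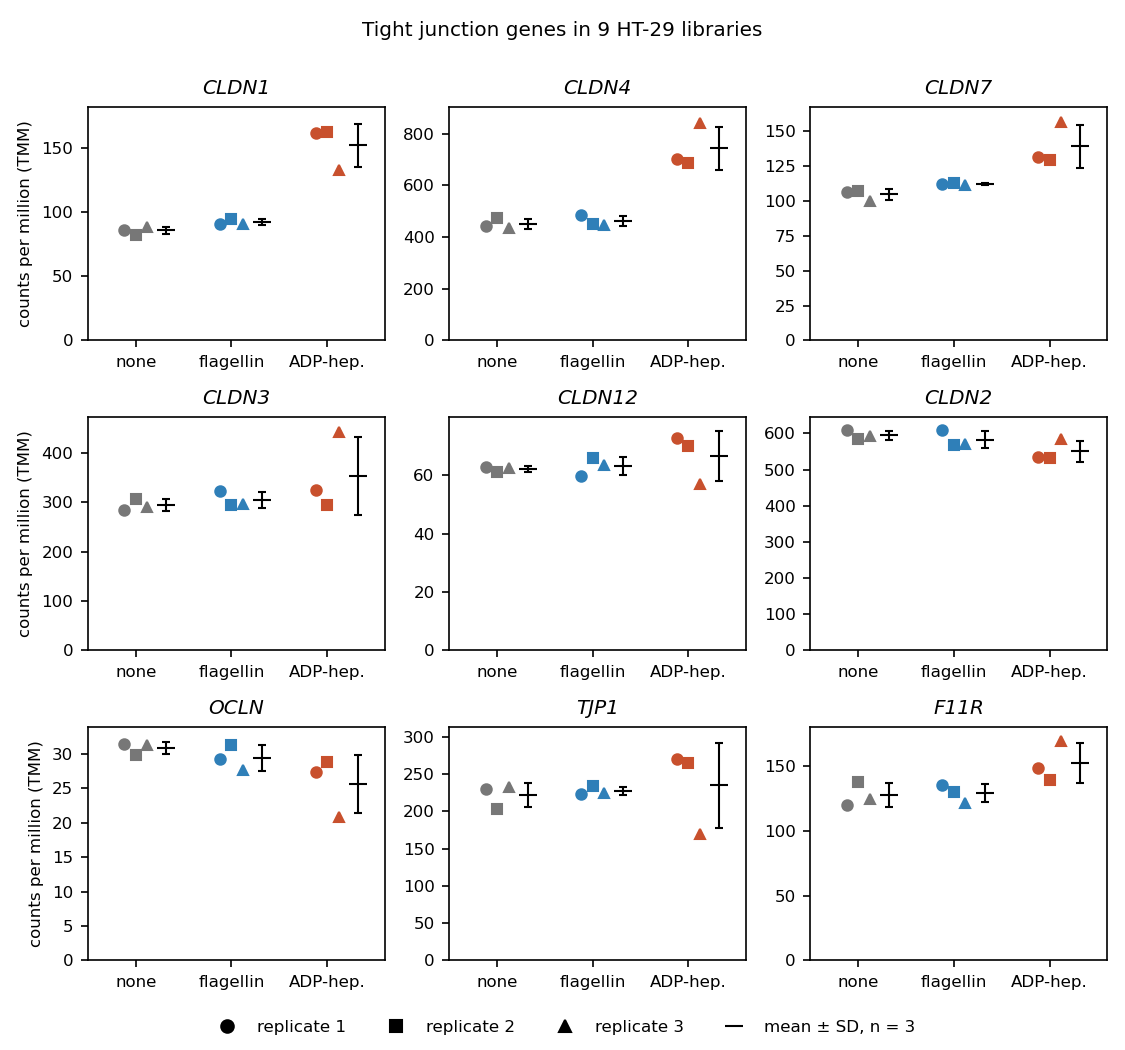
Level of each tight junction gene in CPM (vertical axes, linear, from 0) in the non-stimulated (none), flagellin and ADP-heptose (ADP-hep.) groups. Each symbol is 1 library, with the shape giving the replicate number, and the black bar is the mean with its SD (n = 3). The ADP-heptose libraries lie above all others for CLDN1, CLDN4, CLDN7 and F11R, and the ADP-heptose triangle (replicate 3) lies away from its group for CLDN3 and TJP1.

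ADP-heptose raised 3 of the 9 genes over non-stimulated cells, all of them claudins, and lowered none. CLDN1 rose 1.78-fold, CLDN4 1.65-fold and CLDN7 1.33-fold by edgeR's quasi-likelihood test at an adjusted p under 0.05 (Benjamini-Hochberg over the 17412 genes tested). The same test called 11.9% of all genes, 7.48% as higher and 4.42% as lower, and the median log2 fold change was 0.26 over the 9 genes against 0.0087 over all genes. None reached 2-fold, the threshold the study itself applied, which 3.37% of all genes passed, 2.89% as higher. In bulk RNA, more RNA per cell cannot be told apart from a larger share of cells that express the gene.

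CLDN1 (ENSG00000163347, chr3:190305701-190322475, minus strand, GRCh38), which encodes a claudin known for sealing the junction, measured 86.2, 82.2 and 88.3 CPM in the non-stimulated replicates, 90.9, 94.5 and 90.3 CPM after flagellin and 161, 162 and 132 CPM after ADP-heptose. All ADP-heptose libraries lay above the other 6, and replicate 3 was the lowest of them. The log2 fold change of ADP-heptose over non-stimulated cells was 0.83 (SE 0.083, 95% confidence interval 0.65 to 1.01), with an adjusted p of 2.37e-05 in edgeR's test. Without ADP-heptose replicate 3 it was 0.92.

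CLDN4 (ENSG00000189143, chr7:73799542-73832693, plus strand), another sealing claudin of the gut, measured 445, 472 and 435 CPM without stimulation, 485, 452 and 449 CPM after flagellin and 702, 688 and 839.9 CPM after ADP-heptose. The ADP-heptose libraries again stood clear of the rest, and here replicate 3 was the highest. Relative to non-stimulated cells it rose by 0.72 on the log2 scale (SE 0.086, interval 0.53 to 0.91, adjusted p 0.000107 in edgeR's test), and 0.63 without replicate 3.

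CLDN7 (ENSG00000181885, chr17:7259903-7263983, minus strand), whose product is found at the tight junction and along the lateral membrane, measured 106, 107 and 99.8 CPM without stimulation, 112, 112 and 111 CPM after flagellin and 131, 129 and 156 CPM after ADP-heptose. The 3 groups did not overlap, although the step from non-stimulated to flagellin was small. ADP-heptose moved CLDN7 by 0.41 on the log2 scale (SE 0.080, interval 0.24 to 0.58, adjusted p 0.00477 in edgeR's test), or by 0.32 without replicate 3. With offsets for exon length and GC content the value was 0.19 with an adjusted p of 0.024. Of the 2492 exon bases of CLDN7, 269 are shared with AC003688.1 on the same strand, which held 0 counts. Reads there may be left uncounted, which was not tested.

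Promoter sequence of RefSeq (GRCh38.p14, from 250 bases before to 50 after each annotated start) was at hand for 8 of the 9 genes, in 14 entries. It is shown for the claudins that rose and for CLDN2, which is also abundant but did not pass the test. The first sequence is the 250 bases before the CLDN1 start, chr3:190322447-190322696 on the minus strand. Its capitals mark a match to GGGRNNYYCC, a loose form of the κB motif bound by NF-κB. The match begins at -70 counted from the start. In this form R is A or G, Y is C or T and N is any base. The free middle bases of the CLDN1 match are C and G. The other sequences are 30-base stretches around motif matches. Capitals in CLDN4 (chr7:73830746-73830775 and chr7:73830824-73830853, plus strand) and CLDN2 (chrX:106900093-106900122, plus strand) mark TGANTCA, a loose form of the AP-1 motif. This form allows any middle base, whereas the usual motif has C or G there, as only the second CLDN4 stretch does. Those in CLDN7 (chr17:7262635-7262664, chr17:7262596-7262625 and chr17:7262481-7262510, minus strand) mark the E-box CAGGTG or its reverse CACCTG, the letters bound by Snail-type repressors, and show the 4 matches that lie before the start.
CLDN1 promoter: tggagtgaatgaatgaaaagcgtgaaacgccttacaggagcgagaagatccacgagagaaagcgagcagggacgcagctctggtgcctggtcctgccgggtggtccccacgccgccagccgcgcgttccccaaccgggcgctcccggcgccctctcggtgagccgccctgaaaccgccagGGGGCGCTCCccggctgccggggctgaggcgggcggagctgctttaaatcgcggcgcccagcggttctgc
CLDN4, first AP-1 match: ctgggctgTGATTCAgtgtctgtctcccgg
CLDN4, second AP-1 match: agactggatagTGACTCAgggacccggggc
CLDN7, first E-box stretch: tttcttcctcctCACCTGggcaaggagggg
CLDN7, second E-box stretch: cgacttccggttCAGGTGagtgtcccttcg
CLDN7, E-box stretch nearest the start: cctacatatactCAGGTGcgcccCACCTGt
CLDN2, AP-1 match: tatttttctccTGATTCAtctcatgccaac
GENCODE 29 places exons of longer CLDN4 and CLDN7 transcripts across the CLDN4 and CLDN7 stretches, and an exon of RIPPLY1, on the other strand, across the CLDN2 stretch.

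Both strands were searched. The loose κB form GGGRNNYYCC was in 1 of the 14 entries, that of CLDN1, and in 11.3% of 35116 promoters of the same length. The loose AP-1 form TGANTCA was in 2 of 14 entries, those of CLDN4 (first bases at -242 and -161) and of the first CLDN2 start (at -60), and in 7.71% of all promoters. Only the CLDN4 match at -161 has C or G as its middle base. The E-box was in 5 of 14 entries, with 5 matches at the second CLDN7 start (first bases at -174, -135, -20, -9 and 6, of which the match after the start is not shown), and in 20.6% of all promoters. TATAAA was in none of the 14 entries and in 11.5% of all promoters, and the GC box GGGCGG, bound by Sp1-type factors and left in lower case here because it is so common, was in 8 of 14 entries and in 45.0% of all promoters. A match is a description of the letters and not a site of binding.

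The other claudins did not pass the test. CLDN3 (ENSG00000165215, chr7:73768997-73770270, minus strand), a sealing claudin with the shortest exon sequence of the group, measured 285, 307 and 290.0 CPM without stimulation, 323, 293 and 297 CPM after flagellin and 324, 294 and 442 CPM after ADP-heptose. The groups overlapped, and ADP-heptose replicate 3 alone lay far above the rest. The log2 fold change of ADP-heptose over non-stimulated cells was 0.26 (SE 0.12, adjusted p 0.209 in edgeR's test), but 0.08 without replicate 3, 0.37 with an adjusted p of 0.0481 without replicate 2, and -0.07 with offsets for length and GC content. Without the filter on low counts it was 0.25 with an adjusted p of 0.0309.

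CLDN12 (ENSG00000157224, chr7:90383721-90513402, plus strand), which encodes a claudin linked to calcium passage in the gut, measured 62.9, 61.0 and 62.6 CPM without stimulation, 59.7, 65.8 and 63.5 CPM after flagellin and 72.9, 70.1 and 56.8 CPM after ADP-heptose. ADP-heptose replicates 1 and 2 were above every other library and replicate 3 below every one. ADP-heptose differed from non-stimulated cells by 0.10 (adjusted p 0.525 in edgeR's test), against 0.21 with an adjusted p of 0.00745 without replicate 3 and -0.03 when scaled to library totals. Part of its exon sequence, 347 of 6741 bases, is shared with GTPBP10 on the same strand, which held 14192 counts over the 9 libraries, so reads there may be split between the genes.

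CLDN2 (ENSG00000165376, chrX:106900164-106930861, plus strand), the channel-forming claudin, measured 608, 584 and 594 CPM without stimulation, 610.2, 568 and 569 CPM after flagellin and 535, 533 and 585 CPM after ADP-heptose. ADP-heptose replicates 1 and 2 were below all 6 other libraries, whereas replicate 3 fell among them. Against non-stimulated cells the log2 difference was -0.11 (SE 0.069, interval -0.26 to 0.04, adjusted p 0.34 in edgeR's test). It was -0.15 with an adjusted p of 0.013 without replicate 3, -0.21 with an adjusted p of 0.00985 with the offsets for length and GC content, and -0.25 with an adjusted p of 0.0163 when scaled to library totals.

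Neither occludin, the scaffold nor the adhesion molecule passed the test. OCLN (ENSG00000197822, chr5:69492292-69558104, plus strand), which encodes occludin, measured 31.4, 29.8 and 31.4 CPM without stimulation, 29.3, 31.3 and 27.6 CPM after flagellin and 27.4, 28.8 and 20.8 CPM after ADP-heptose. All ADP-heptose libraries lay below the non-stimulated ones, and replicate 3 was the lowest. The log2 fold change was -0.27 (SE 0.11, interval -0.51 to -0.02, adjusted p 0.159 in edgeR's test) and -0.13 without replicate 3. A pseudogene copy, OCLNP1 (chr5:71074225-71093193), held 102 to 216 counts per library against 872 to 1623 for OCLN, so reads may be split between the copies.

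TJP1 (ENSG00000104067, chr15:29699367-29968865, minus strand), the scaffold gene and the one with the longest exon sequence, measured 229.5, 203 and 233 CPM without stimulation, 223, 234 and 225 CPM after flagellin and 271, 265 and 169 CPM after ADP-heptose. ADP-heptose replicates 1 and 2 were above the other 6 libraries and replicate 3 was below them. The log2 fold change was 0.08 (SE 0.14, adjusted p 0.747 in edgeR's test). When scaled to library totals it was -0.04, without replicate 3 it was 0.28 with an adjusted p of 7.23e-05, without replicate 1 it was -0.04 and without replicate 2 it was -0.02.

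F11R (ENSG00000158769, chr1:160995211-161021348, minus strand), which encodes the junctional adhesion molecule, measured 120.0, 138 and 125 CPM without stimulation, 136, 129.9 and 121 CPM after flagellin and 148, 139.6 and 169 CPM after ADP-heptose. The ADP-heptose libraries lay above the others, but the lowest of them was only just above the highest non-stimulated library. Its log2 fold change was 0.26 (SE 0.086, interval 0.07 to 0.44, adjusted p 0.0799 in edgeR's test). It was 0.18 with an adjusted p of 0.0214 without replicate 3 and 0.31 with an adjusted p of 0.0464 without replicate 2. Of its 5066 exon bases, 1853 are shared with AL591806.3 on the same strand, which held 78 counts over the 9 libraries. Reads there may be split between the genes or left uncounted, which was not tested.

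Counted over libraries, 4 of the 9 genes (CLDN1, CLDN4, CLDN7 and F11R) had all ADP-heptose libraries above all non-stimulated ones, as did 15.4% of the genes tested, and OCLN had them all below, as did 14.7%. The remaining 4 overlapped. At an unadjusted p under 0.05 the count was 5 of 9, against 24.9% of all genes. For a single gene, permuting 3 against 3 libraries in an exact test cannot give a p below 0.1, so the calls rest on the spread shared across genes.

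**Figure D2:**
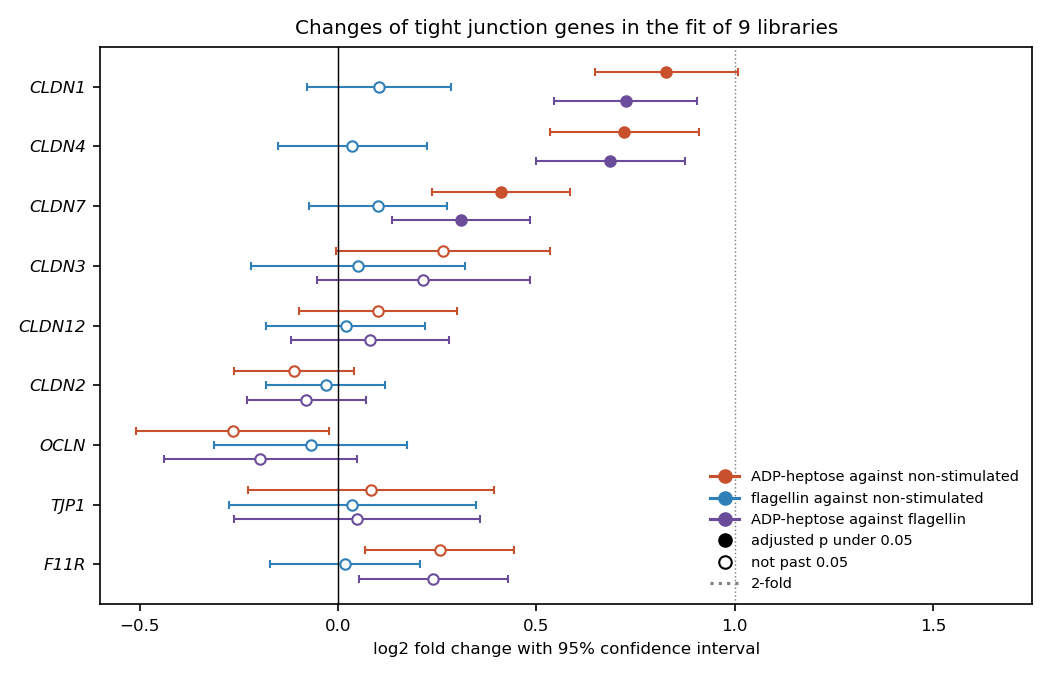
Log2 fold change of each tight junction gene (horizontal axis) with its 95% confidence interval in the 3 comparisons, from 1 edgeR fit of 9 libraries. Filled points passed an adjusted p of 0.05, open points did not, and the dotted line marks 2-fold. CLDN1, CLDN4 and CLDN7 are filled for ADP-heptose against both other groups, and no point is filled for flagellin.

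None of the 9 genes was called after flagellin, where edgeR's test called 66 genes, 0.379% of those tested, 0.368% as higher and 0.0115% as lower. The count was also 0 at an unadjusted p under 0.05, against 3.78% of all genes, and 0 in DESeq2. The log2 fold changes ran from -0.07 for OCLN to 0.10 for CLDN1 and CLDN7, with a median of 0.04. The flagellin libraries of CLDN1 and CLDN7 lay above the non-stimulated ones, as for 7.66% of all genes (5.19% lay below), and those of the other 7 genes overlapped. The precision of these values at 2.5 h is given by intervals for single genes, which were not adjusted over genes. The 95% interval was -0.08 to 0.28 for CLDN1, -0.15 to 0.22 for CLDN4, -0.07 to 0.27 for CLDN7 and -0.28 to 0.35 for TJP1, the widest of the group.

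Set directly against flagellin, ADP-heptose again gave higher CLDN1, CLDN4 and CLDN7 and no lower gene. The same test called 8.16% of all genes, 5.4% as higher and 2.76% as lower, and 2.35% also passed 2-fold, 2.06% as higher, which none of the 9 did. At an unadjusted p under 0.05 the count was 4 of 9, against 21.2% of all genes. This comparison shares its ADP-heptose libraries with the one against non-stimulated cells. CLDN1 differed by 0.72 on the log2 scale (SE 0.083, interval 0.54 to 0.91, adjusted p 0.000103 in edgeR's test), a 1.65-fold difference. CLDN4 differed by 0.69 (SE 0.086, interval 0.50 to 0.87, adjusted p 0.000224), and CLDN7 by 0.31 (SE 0.080, interval 0.14 to 0.48, adjusted p 0.0315). The CLDN7 call was the least secure of these. It was lost in 12 of 19 alternative settings, among them each one that left out a flagellin library (adjusted p 0.0922 to 0.106) or a non-stimulated library (0.0525 to 0.0579), and the block on replicate number (0.0815). The 6 genes not called ran from -0.20 for OCLN to 0.24 for F11R, and F11R joined CLDN1, CLDN4 and CLDN7 in having all ADP-heptose libraries above all flagellin ones, as did 14.2% of the genes tested. Without ADP-heptose replicate 3, CLDN12 (0.19, adjusted p 0.0145), TJP1 (0.25, adjusted p 0.000388) and F11R (0.17, adjusted p 0.0367) were called as well, 6 of 9 genes in all, where the test called 15.1% of all genes.

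The make-up of the claudin RNA was also compared within each library, where the scaling of libraries plays no part. The table holds 24 claudin genes, and the 6 described here took 97.8% to 98.2% of all claudin counts. CLDN2 had the largest share in non-stimulated cells, at 37.4%, 35.4% and 37.0% of claudin counts in the 3 replicates, and after flagellin, at 35.6%, 35.1% and 35.3%. After ADP-heptose its share was 27.3%, 27.9% and 26.0%, below every other library. CLDN4 took 27.3%, 28.7% and 27.1% without stimulation, 28.3%, 28.0% and 27.8% after flagellin and 35.8%, 36.0% and 37.3% after ADP-heptose, and so had the largest share in each ADP-heptose library. The share of CLDN1 was 4.99% to 5.50% without stimulation, 5.30% to 5.84% after flagellin, and 8.22%, 8.47% and 5.88% after ADP-heptose, where replicate 3 was close to the flagellin libraries.

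The ratio of CLDN4 to CLDN2 counts put the same shift in 1 number. It was 0.731, 0.809 and 0.733 in non-stimulated libraries, 0.794, 0.797 and 0.788 after flagellin, and 1.31, 1.29 and 1.44 after ADP-heptose. The ADP-heptose ratios were all above 1 and all others below it. Against CLDN3, the CLDN4 ratio was at most 1.56 without stimulation, at most 1.54 after flagellin and 2.17, 2.34 and 1.90 after ADP-heptose, again with no overlap. Summed over all claudins, the level was 1605 to 1648 CPM without stimulation, 1615 to 1715 CPM after flagellin and 1913 to 2252 CPM after ADP-heptose. Counts of a gene grow with its length, so these shares describe reads and not molecules. Per kilobase of exon, CLDN3 had the largest share of the claudins in every library, at 37.2%, 35.2% and 42.2% after ADP-heptose. On that scale CLDN4 was below CLDN2 in ADP-heptose replicates 1 (21.9% against 23.0%) and 2 (22.4% against 23.9%) and above it in replicate 3 (21.8% against 20.9%). Which claudin is largest, and whether the ratio lies above 1, therefore depends on length. The length again joins the exons of all annotated transcripts, and the length of shorter transcripts was not tried.

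**Figure D3:**
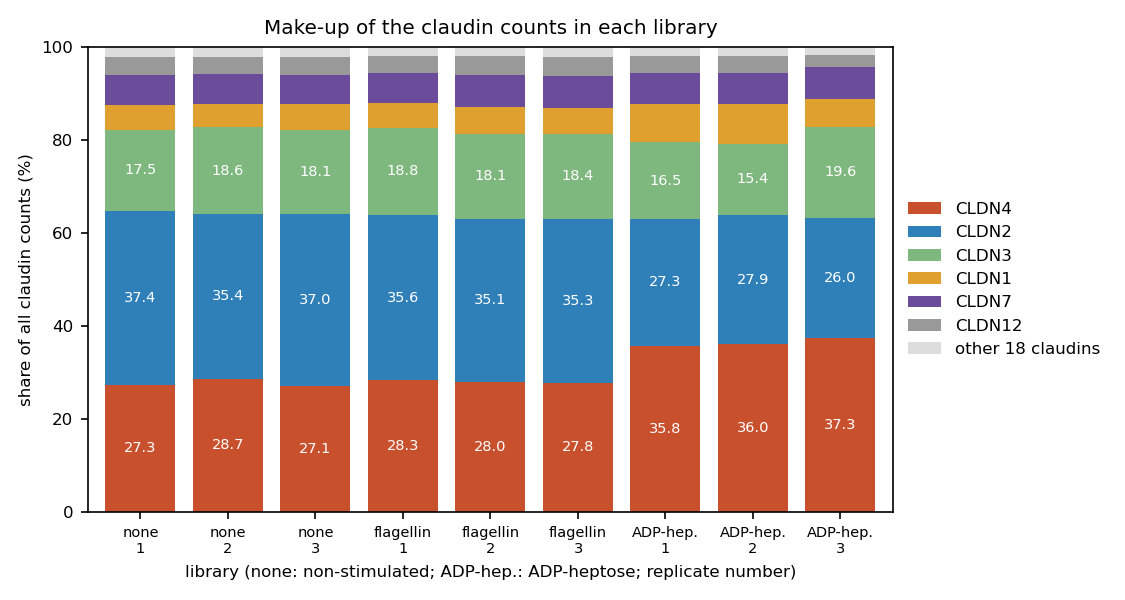
Share of all claudin counts in each of the 9 libraries (vertical axis, percent), stacked by gene, with the other 18 claudins in light grey. Numbers in the bars give the shares of CLDN4, CLDN2 and CLDN3. CLDN2 falls from 35.1% or more in the 6 non-stimulated and flagellin libraries to 27.9% or less in the ADP-heptose libraries, where CLDN4 holds 35.8% or more.

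The distance of ADP-heptose replicate 3 from replicates 1 and 2 moved with gene length. The median log2 difference was 0.37 for genes with under 2 kb of annotated exon, 0.19 for 2 to 4 kb, 0.01 for 4 to 6 kb, -0.12 for 6 to 8 kb and -0.25 for over 8 kb. The tight junction genes spanned that range, from 0.52 for CLDN3 (1.27 kb) to -0.66 for TJP1 (11.3 kb). CLDN7 at 0.26 (2.49 kb) and CLDN2 at 0.13 (3.41 kb) lay near the median of their class. CLDN4 at 0.27 (4.70 kb) and F11R at 0.23 (5.07 kb) lay above theirs, and CLDN1 at -0.29 (3.66 kb), CLDN12 at -0.33 (6.74 kb) and OCLN at -0.43 (6.76 kb) below. These lengths join the exons of all annotated transcripts. A shorter CLDN4 transcript alone could fall in a class with a higher median, so the place of CLDN4 depends on that choice. What set this library apart was not tested.

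**Figure D4:**
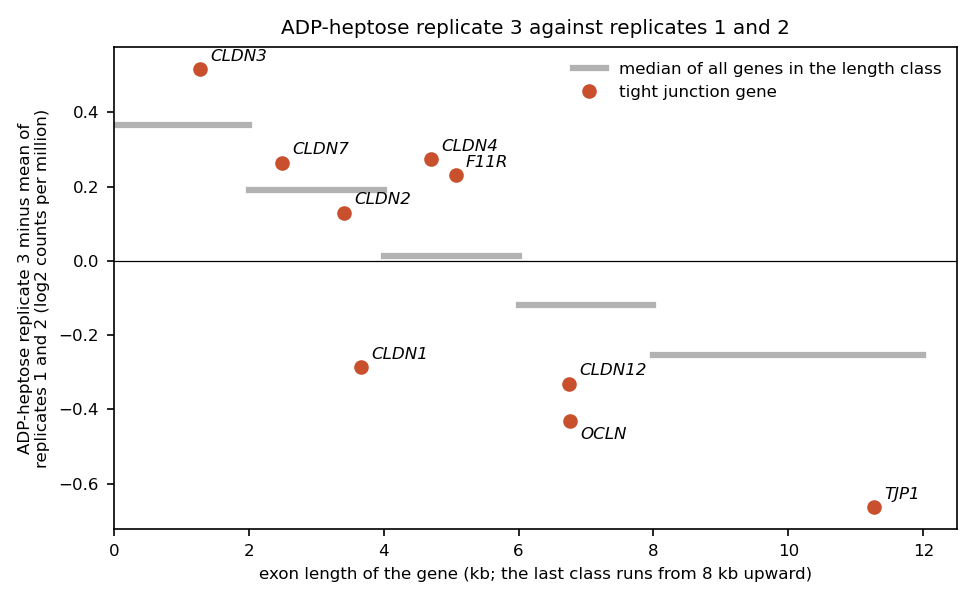
Log2 difference of ADP-heptose replicate 3 from the mean of replicates 1 and 2 (vertical axis) against annotated exon length in kb (horizontal axis). Red points are the 9 tight junction genes and grey bars the median of all genes in each length class. The grey bars step down from 0.37 to -0.25 as length grows, and the points run from 0.52 for CLDN3 to -0.66 for TJP1.

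Leaving out that library raised the count of genes called against non-stimulated cells to 7 of 9, where 18.3% of all genes were called. CLDN1, CLDN4, CLDN7, CLDN12, TJP1 and F11R were then higher and CLDN2 lower. CLDN3 and OCLN were not called. With the offsets for length and GC content in all 9 libraries, 5 were called, CLDN1, CLDN4, CLDN7 and F11R as higher and CLDN2 as lower, against 16.6% of all genes. CLDN1 and CLDN4 were called in each of the 19 alternative settings except the one that also asked for 2-fold.

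**Figure D5:**
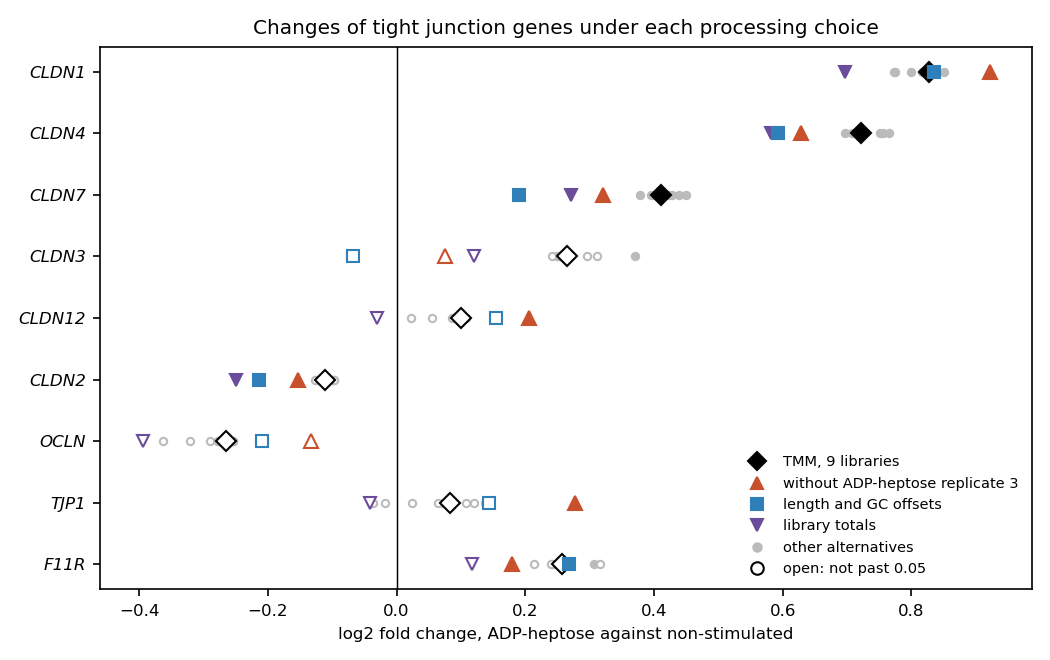
Log2 fold change of ADP-heptose over non-stimulated cells (horizontal axis) for each tight junction gene in the fit of 9 libraries and each alternative setting except the 2-fold threshold. Black diamonds are the values of the fit of 9 libraries, coloured symbols the settings named in the key, grey dots the rest, and filled symbols passed an adjusted p of 0.05. CLDN1, CLDN4 and CLDN7 stay above 0 throughout, CLDN2 and OCLN below it, and CLDN3, CLDN12 and TJP1 fall on both sides.

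The wider tight junction was read from lists of genes, also chosen by name with earlier results known. Of 18 other claudins, 5 passed the filter and none was called in any comparison by edgeR's test. The most abundant of them, CLDN15 and CLDN23, averaged 17.5 and 13.6 CPM without stimulation and 16.9 and 16.2 CPM after ADP-heptose.

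Among other membrane proteins of the junction, 11 of 13 were tested, 2 were higher and 2 lower after ADP-heptose (7.48% and 4.42% of all genes), with 0.06 as the median on the log2 scale. LSR, which encodes the receptor that marks the corners where 3 cells meet, measured 229.9, 239 and 227 CPM without stimulation and 316, 304 and 379 CPM after ADP-heptose, with no overlap. Its log2 fold change was 0.52 (SE 0.084, adjusted p 0.00124 in edgeR's test). CRB3, which encodes an apical polarity protein, rose by 0.30 (adjusted p 0.0335), a call lost with offsets for length and GC content. MARVELD2, which encodes tricellulin and belongs to the occludin family, fell by 0.28 (adjusted p 0.0459). CXADR, which encodes a junctional adhesion protein and virus receptor, measured 67.1, 68.8 and 65.4 CPM without stimulation and 56.0, 54.4 and 51.9 CPM after ADP-heptose, a fall of 0.31 (adjusted p 0.00945).

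Of 19 plaque and polarity genes tested, 4 were higher after ADP-heptose and none lower (7.48% and 4.42% of all genes), and the median of the list was 0.19 on the log2 scale. PARD6B, which encodes a subunit of the PAR polarity complex, measured 28.0, 28.5 and 27.0 CPM without stimulation, 28.4, 28.0 and 29.4 CPM after flagellin and 56.2, 60.1 and 59.4 CPM after ADP-heptose. That was the one gene of these lists past 2-fold, at 1.07 on the log2 scale (SE 0.069, adjusted p 4.45e-07 in edgeR's test). CGN, which encodes cingulin, a plaque protein bound to the zonula occludens scaffold, rose by 0.67 (SE 0.081), from a mean of 94.0 CPM to 149.8 CPM. TJAP1 rose by 0.56 and AMOTL2 by 0.45. With libraries scaled to their totals the AMOTL2 call was lost and PALS1 was called lower.

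In the list of contractility and signalling genes 1 of 14 was called, where 11.9% of all genes were. ARHGEF2, which encodes a junction-bound activator of RhoA, measured 102, 97.0 and 99.8 CPM without stimulation and 170.3, 170.2 and 137 CPM after ADP-heptose, and rose by 0.68 on the log2 scale (adjusted p 0.000205 in edgeR's test).

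The neighbouring adherens junctions and desmosomes had 4 of 18 genes higher and none lower (7.48% and 4.42% of all genes), with a median of 0.01. CTNNB1, which encodes beta-catenin, rose by 0.46 (adjusted p 0.000459 in edgeR's test), NECTIN2 by 0.44, JUP, which encodes plakoglobin, by 0.37 and DSC2, a desmosomal cadherin gene, by 0.29, while CDH1, which encodes E-cadherin, stood at 0.01 without passing it. With libraries scaled to their totals, JUP and DSC2 lost their calls and NECTIN3 was called lower. Of 9 genes of transcription factors known to act on junction genes 5 were tested and 1 was called, OVOL1, a gene of an epithelial repressor, at 0.53 (adjusted p 0.00748). OVOL2 stood at -0.32 and was not called. It was called lower with length and GC offsets, with library totals and without ADP-heptose replicate 3. With library totals GRHL2 was called lower as well. The repressor gene SNAI1 was low, at 1.20 to 1.84 CPM in all libraries, and SNAI2 and TWIST1 were at 0. ZEB1 averaged 0.106 CPM without stimulation, 0.0422 CPM after flagellin and 0.247 CPM after ADP-heptose, and ZEB2 at most 0.0379 CPM in a group. Neither passed the filter with all 9 libraries. Without ADP-heptose replicate 3, ZEB1 passed it and was called higher against flagellin, at this very low level. None of the genes in these 6 lists was called after flagellin by edgeR's test. Against flagellin, 10 of 72 genes tested were higher after ADP-heptose and 1, CXADR, lower, where 8.16% of all genes were called. Over the 6 lists, 12 of 72 were higher and 2 lower against non-stimulated cells, where 11.9% of all genes were called. Without ADP-heptose replicate 3 these were 19 and 5 of 73, and the share over all genes was 18.3%.

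The gene with the smallest adjusted p of the 9, CLDN1, was also compared with 12167 other genes by the Pearson correlation of log2 CPM over the 9 libraries. ZNF697 (r = 0.997), BACH1 (0.997), ZFP36L1 (0.996), TNFRSF10B (0.996) and BRD2 (0.996) were closest. Their log2 fold changes after ADP-heptose were 1.51, 1.10, 0.96, 1.65 and 0.41, and after flagellin 0.17, 0.11, 0.05, 0.24 and 0.01. The points share their libraries and fall into an ADP-heptose cluster and the rest, so r mainly describes that step and the place of replicate 3 within it.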

How the data were processed

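Poly(A) RNA of 9 HT-29 libraries, 3 per group, was sequenced by the authors as paired 150-base reads, aligned with HISAT2 and counted per gene with featureCounts. The deposited values are raw counts. Tool versions, genome build, annotation, strand setting and the handling of reads with several matches are not given in the sources used here. The table has 62972 lines and 62710 gene identifiers, of which 232 repeated with identical counts were kept once, and 58274 were found in GENCODE 29 (GRCh38), the source of coordinates and exon lengths. Groups came from the treatment labels.

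Counts were analysed in R 4.3.3 with edgeR 4.0.16 (TMM scaling, filterByExpr, robust quasi-likelihood F test) in 1 fit of all 9 libraries with 6 residual degrees of freedom, tested on simulated data. A gene was called at an adjusted p under 0.05 (Benjamini-Hochberg, 17412 genes, all 9 described genes included). CPM are counts scaled to a common library total after TMM. The deepest library had under 2-fold the counts of the shallowest, and the described genes had 872 or more counts in every library. Alternatives were DESeq2 1.42.0, its size factors, library totals, other filters (none, or a mean of at least 10 counts), 6-library fits, a block on replicate number, the 2-fold threshold, offsets for exon length and GC content (splines with 4 degrees of freedom), and leaving out each library. The 9 genes and the lists were chosen with earlier results of these data known. Named list genes are those called in any comparison whose log2 CPM averaged 1 or more, at most 5 per list and comparison by adjusted p, and those a count turns on. CLDN15, CLDN23, CDH1, SNAI1, SNAI2, TWIST1, ZEB1 and ZEB2 were named for their roles after their values were seen. No fold changes or p-values of the authors were used.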

Additional observations from a re-analysis of the deposited data

How the results depend on the processing

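The calls of CLDN1 and CLDN4 against either group depended on no setting but the 2-fold threshold, which left 0 of the 9 genes in both ADP-heptose comparisons. Against non-stimulated cells the count of 3 became 4 without a filter (CLDN3 added), 4 with library totals (CLDN2 added) and 5 with length and GC offsets, and ranged from 3 to 7 when 1 library was left out, with 5 without ADP-heptose replicate 2 and 7 without replicate 3. Against flagellin it ranged from 2 to 6. After flagellin it was 0 throughout. CLDN7 lost its call against non-stimulated cells with offsets and the block together (0.19, adjusted p 0.0506). The cause of these changes was not tested.

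The replicate numbers gave no sign of pairing the libraries. The correlation of deviations from the group mean ran from -0.38 to 0.22 in same-numbered libraries and passed 0.1 in 2 of 9 pairs. In libraries of different number it ran from -0.38 to 0.43. Because ADP-heptose replicate 3 weighs on the deviations of its group, these values cannot decide whether same-numbered libraries shared an experiment. With the replicate block, edgeR called 3 of the 9 genes against non-stimulated cells, 2 against flagellin and 0 after flagellin, and 1587, 1111 and 46 of all genes.

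Over all genes, the 2072 called against non-stimulated cells were 586 at 2-fold and 1317 to 3288 with 1 library left out. The 66 called after flagellin were 124 without a filter, 143 in fits of 6 libraries, 39 at 2-fold and 38 to 171 with 1 library left out, and the 1421 called against flagellin were 409 at 2-fold, 2194 with offsets and 912 to 2721 with 1 library left out. Of the calls against non-stimulated cells 62.8% were higher, against 32.7% with library totals, which moved the median of all genes to -0.13, and 47.4% with offsets. Against flagellin these shares were 66.2%, 40.0% and 52.7%. In the 6 lists, the 12 higher genes against non-stimulated cells were 8 with library totals and 9 to 19 with 1 library left out, and the 2 lower ones were 1 with DESeq2 size factors, 7 with library totals, 5 in DESeq2 and 1 to 5 with 1 library left out. Against flagellin, the 10 higher were 7 to 20 with 1 library left out, and the 1 lower was 2 with library totals and 0 to 2 with 1 library left out.

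Log2 fold changes that changed sign were small, and not called where their sign had changed. With library totals, CLDN12 was -0.0299 and TJP1 -0.0419 against non-stimulated cells, and -0.0332 and -0.0609 against flagellin. With offsets, CLDN3 was -0.0672 against non-stimulated cells, -0.0229 against flagellin and -0.0443 after flagellin, where CLDN4 was -0.0166. With offsets and the replicate block these were -0.0679, -0.0234, -0.0445 and -0.0164. With 1 library left out, TJP1 ranged from -0.0363 to 0.277 against non-stimulated cells and from -0.0651 to 0.248 against flagellin, the highest values being those without ADP-heptose replicate 3, where it was called. After flagellin, with 1 library left out, CLDN3 ranged from -0.0013 to 0.0819, CLDN4 from -0.00676 to 0.0698, CLDN12 from -0.0221 to 0.0508, TJP1 from -0.0243 to 0.0719 and F11R from -0.0271 to 0.0765. Of the 18 other claudins, 13 had too few counts to be tested.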
